A study of Saccharomyces cerevisiae with 3 samples.

Results

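The general transcription factors of RNA polymerase III (Pol III) are encoded by a small set of genes, and the Maf1 depletion signal beside 10 of them is described here: the gene of TFIIIA, 3 genes of TFIIIB and 6 genes of TFIIIC. The rule that picks the features uses gene names and no measured value, though earlier results of these data were known when the genes were listed. Of the 10 genes, 9 had a feature on the array, a single stretch beside the open reading frame (ORF), and these are 9 of 6399 features in all. TFC1 (YBR123C) had none. All 9 features had a value in each of the 3 conditions, and no Pol III gene lay immediately next to any of the 10 genes in the RefSeq gene table.

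Budding yeast with myc-tagged Maf1 was grown in the rich medium YPD and was left untreated or was given rapamycin at 0.2 ng/ul for 30 min or 120 min. Rapamycin inhibits the TOR kinase, which couples growth to nutrients, and Maf1 is the conserved repressor of Pol III. Chromatin was crosslinked and depleted of Maf1 with antibodies against the tag, and the DNA that was left, labelled with Cy5, was hybridized to intergenic arrays against input DNA labelled with Cy3. All 3 groups carry the tag, and chromatin from an untagged strain was not analysed here. Each condition is 1 deposited column, the authors' mean of 3 replicates, so no spread between replicates can be had, no difference below has a test, and values that lie close together cannot be put in order.

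In TFIIIC-dependent transcription, TFIIIC first recognises the A box and B box inside a tRNA gene and then places TFIIIB upstream of the start site, and TFIIIB recruits the polymerase. TFIIIA does the first step at the 5S ribosomal RNA gene, where it gives TFIIIC a platform. A few chromosomal sites bind TFIIIC without TFIIIB or polymerase, and the promoter of TFC6 is known to hold such an extra TFIIIC site. The genes themselves are transcribed by RNA polymerase II. They are thus protein genes, with the TFC6 promoter as the place where a Pol III factor is known to sit.

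Values are deposited scores minus the median score of all features in that column, in score units. Neither the log base nor the numerator of the ratio is stated in the labels, and a high score is therefore read neither as more nor as less Maf1, and with the sign turned every "higher" becomes "lower". Features named for tRNA genes served as a yardstick: the 245 with values had median scores of 0.76 without rapamycin, 0.62 at 30 min and 1.46 at 120 min. A feature was counted as high or low when it lay more than 2 robust SDs (from the median absolute deviation over all features) from the column median. That limit was 0.777 in untreated cells, 0.884 at 30 min and then 1.02 at 120 min.

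The labels do not state which side of an ORF a feature covers. Of 125 protein genes that shared a coordinate with a neighbouring gene on the higher side only, 22 (17.6%) had a feature named for them. Of 91 that did so on the lower side only, 49 (53.8%) had one. Of 5719 genes that did so on neither side, 5192 (90.8%) had one. ORF-named features with a Pol III gene next at higher coordinates only had a median of 1.22 after 120 min (216 features), and those with one at lower coordinates only had 0.06 (201 features). The share of 17.6% and the median of 1.22 go with features that carry the name of the gene at their lower-coordinate end. The share of 53.8% was also below 90.8%, which this reading alone does not account for, and single features may differ. Read this way, the features of TFC6, TFC3, TFC8, TFC4, BRF1 and PZF1, whose names mark them as lying on the Crick strand, would cover the side of the gene's start, and those of TFC7, BDP1 and SPT15, on the Watson strand, the side of its end.

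The feature of TFC6 (YDR362C) stood at 0.12 in untreated cells, 0.29 at 30 min and then 0.52 at 120 min. TFC6 encodes a TFIIIC subunit of the part that binds the B box. The score was lowest in untreated cells and highest after 120 min, and it stayed inside the limit of 2 robust SDs in each condition. With each chromosome centred separately the first 2 scores were 0.26 and 0.48. It lay above 63.0%, 75.3% and 82.8% of all features in the 3 columns. The distance from the column median was 0.30 robust SDs in untreated cells, 0.66 at 30 min and then 1.02 at 120 min.

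Set against tRNA-named features, TFC6 lay in the lower part of their range. It was above 21 of 245 in untreated cells, above 46 after 30 min and above 16 after 120 min. Against features of ORFs that lack a neighbouring Pol III gene, it was above 68.6% in untreated cells, above 80.6% after 30 min and above 89.9% after 120 min, where 504 of 4989 scored higher. The level beside TFC6 was thus above that of most such features and below that of most tRNA-named ones in each column.

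From untreated cells to 120 min the score of TFC6 differed by 0.40, where the median was 0.72 over tRNA-named features and 0.02 over features of ORFs that lack a neighbouring Pol III gene. The first 30 min gave a difference of 0.17 at TFC6 and of -0.14 as the tRNA median. From 30 to 120 min it was 0.23 at TFC6 and 0.87 as the tRNA median. The step from 30 to 120 min was 0.12 with each chromosome centred separately and 0.12 after quantile normalization. TFC6 was above the column median in untreated cells, higher at 30 min and higher again at 120 min. This pattern was taken from TFC6 itself, which meets it by construction. Of the 9 features 1 (11.1%) had it, near the share of 677 of 6277 features in all (10.8%). It was found at 73 of 245 tRNA-named features (29.8%). Among features of ORFs that lack a neighbouring Pol III gene it was found at 455 of 4987 (9.1%).

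**Figure D1:**
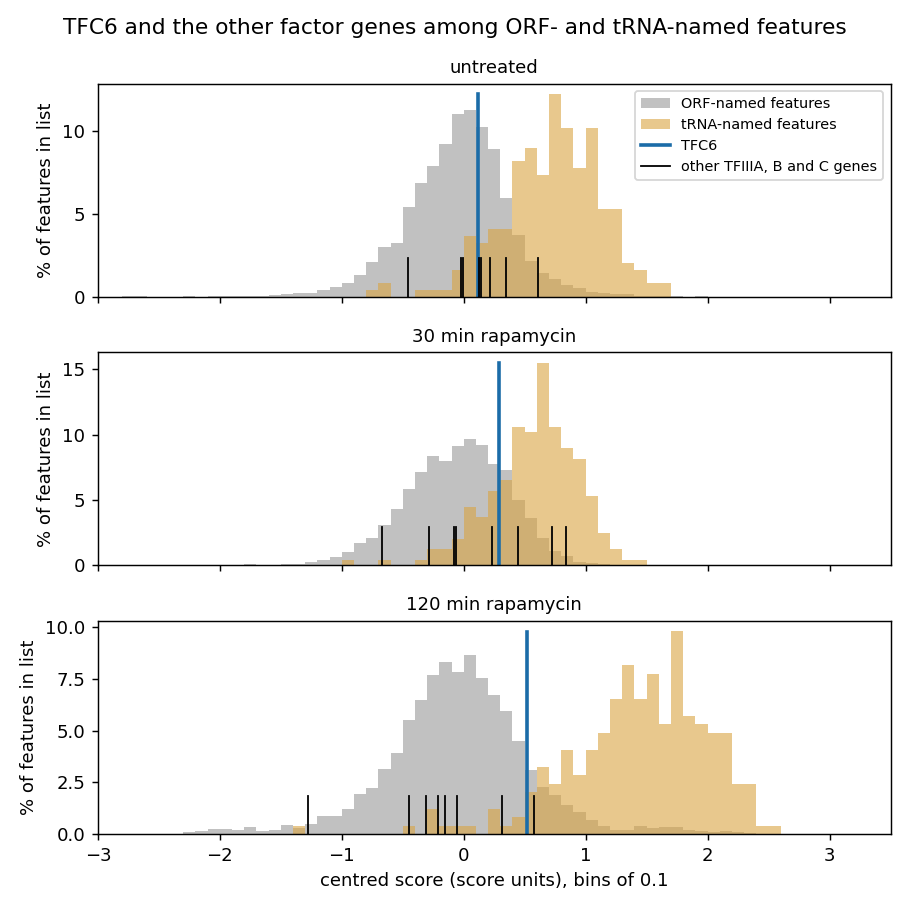
Distribution of centred scores (horizontal axis, score units) as the share of features in each list (vertical axis, percent), for ORF-named features in grey and tRNA-named features in yellow, with 1 panel per condition and the few scores beyond the axis ends left out. The tall blue line marks TFC6, at 0.12, 0.29 and 0.52, and the short black lines mark the other 8 factor genes.

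The distributions of scores show TFC6 between the bulk of the ORF-named features and the tRNA-named ones after 120 min, where these groups lay farthest apart. The features with the most similar scores over the 3 columns, by Euclidean distance, were those of VAM3 at a distance of 0.008, SIR1 (1 of its numbered features) at 0.054, ROX1 at 0.060, HCA4 at 0.062 and RIM11 at 0.063. None of these genes has a Pol III gene next to it. In all 200 features (3.19%) lay within a distance of 0.2 of TFC6.

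The neighbours of TFC6 give the local context. The feature of BCP1, the next gene at lower coordinates, stood at 0.56, 0.29 and 0.04 in the order untreated, 30 min and 120 min, so it was highest where TFC6 was lowest. The feature of ESC2, a silencing gene next at higher coordinates, stood at 0.33, 0.57 and 0.54. ESC2 has a tRNA gene as its own next gene at higher coordinates, and its score after 120 min was far under the tRNA-named median of 1.46.

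The other TFIIIC genes did not share 1 course. TFC3 (YAL001C), whose product is the large B box binding subunit, stood at 0.61 in untreated cells, 0.84 at 30 min and then -0.15 at 120 min. It had the highest score of the 9 genes in untreated cells and after 30 min, above 92.3% and 97.6% of all features, and lay below the column median after 120 min. The difference from 30 to 120 min was -0.99 and that from untreated cells to 120 min was -0.76. Its neighbours differed from it, with 0.34, 0.52 and 0.59 at VPS8, a gene of vacuolar protein sorting, and 0.20, 0.07 and 0.15 at the nucleoporin gene NUP60.

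TFC8 (YPL007C) encodes another subunit of the B box binding part. Its feature stood at 0.21 in untreated cells, 0.72 at 30 min and then 0.58 at 120 min. It was higher in both rapamycin columns than in untreated cells, by 0.51 and 0.36, and after 120 min it lay close to TFC6 at 0.52. Which of them was higher turned with each chromosome centred separately, at 0.50 for TFC8 and 0.60 for TFC6. After quantile normalization the differences at TFC8 were 0.78, past the limit for that difference, and 0.21. The neighbouring features stood at 0.02, 0.09 and 0.20 for the helicase gene CHL1 and at 0.23, 0.35 and 0.35 for the sterol transport gene NCR1, lower than TFC8 in both rapamycin columns.

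TFC4 (YGR047C) encodes the subunit that contacts TFIIIB and brings it to the gene. It stood at -0.46 in untreated cells, -0.67 at 30 min and then -1.27 at 120 min, the lowest of the 9 genes in each column. It was the only 1 of the 9 features (11.1%) past the limit in any column, on the low side after 120 min, where 4.35% of all features lay that low. None of the 9 lay above the limit after 120 min, where 7.60% of all features did. In untreated cells 4.96% of all features were high and 4.34% low, and after 30 min 1.83% and 3.12%, with 0 of the 9 in each case. A count of 1 in 9 is too small to be set against these shares. After quantile normalization TFC3 and TFC8 were high at 30 min, and TFC3 alone was high without centring or with other ORFs as the reference. The shares of all features past the limit under those settings were not computed, and those given above do not apply to them.

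The features at lower coordinates than TFC4 were also low after 120 min, and those on the other side lay inside the limit. TAM41, the gene of a mitochondrial phospholipid enzyme next at lower coordinates, stood at -0.70, -0.29 and -1.43, and YGR045C beyond it at 0.02, -0.43 and -1.58. On the other side the feature of UFD1, a gene of ubiquitin-dependent protein degradation, stood at 0.10, 0.37 and -0.43, and that of SCM4 beyond it at -0.80, 0.21 and -0.64.

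TFC7 (YOR110W), whose product pairs with that of TFC1 in the part of TFIIIC on the A box side, stood at -0.03 in untreated cells, 0.45 at 30 min and then -0.44 at 120 min. The feature of INP53, a phosphoinositide phosphatase gene next at lower coordinates, had the same order with -0.25, 0.64 and -1.02. INP53 would cover the start of TFC7 if features lie at higher coordinates than the ORF that names them. The feature of YOR111W on the other side stood at 0.03, 0.43 and 0.15.

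TFC1, the A box binding subunit's gene, has no feature of its own, and only those named for genes around it can be given. MRPL36, a mitochondrial ribosomal protein gene at lower coordinates, stood at -0.57, 0.75 and -0.30, and the phosphatase gene PTC4 at higher coordinates at -0.23, 0.45 and 0.16. If features lie at higher coordinates than the ORF that names them, that of MRPL36 would cover the side of the TFC1 end. That of PTC4 would then lie beyond PTC4. The feature of YBR124W, an ORF numbered between TFC1 and PTC4 and not in the gene table used, stood at -0.73, -0.30 and -0.30, and was chosen after its values were seen.

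The TFIIIB genes all lay within 1 robust SD of the column median. BRF1 (YGR246C), for the TFIIB-related factor through which Maf1 is known to act on TFIIIB, stood at 0.14 in untreated cells, -0.28 at 30 min and then -0.31 at 120 min. Both rapamycin columns were below untreated cells, by differences of -0.42 and -0.45. With each chromosome centred separately BRF1 stood at -0.11 after 30 min. BDP1 (YNL039W), for the subunit specific to Pol III, stood at 0.12, -0.08 and -0.21 in the same order, which was lower in both rapamycin columns too. Its untreated score was 0.01 with each chromosome centred separately. SPT15 (YER148W), the gene of the TATA-binding protein that serves all 3 nuclear polymerases, stood at 0.35, 0.23 and 0.32. It lay above the median in each column, and above 82.5% of all features in untreated cells.

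**Figure D2:**
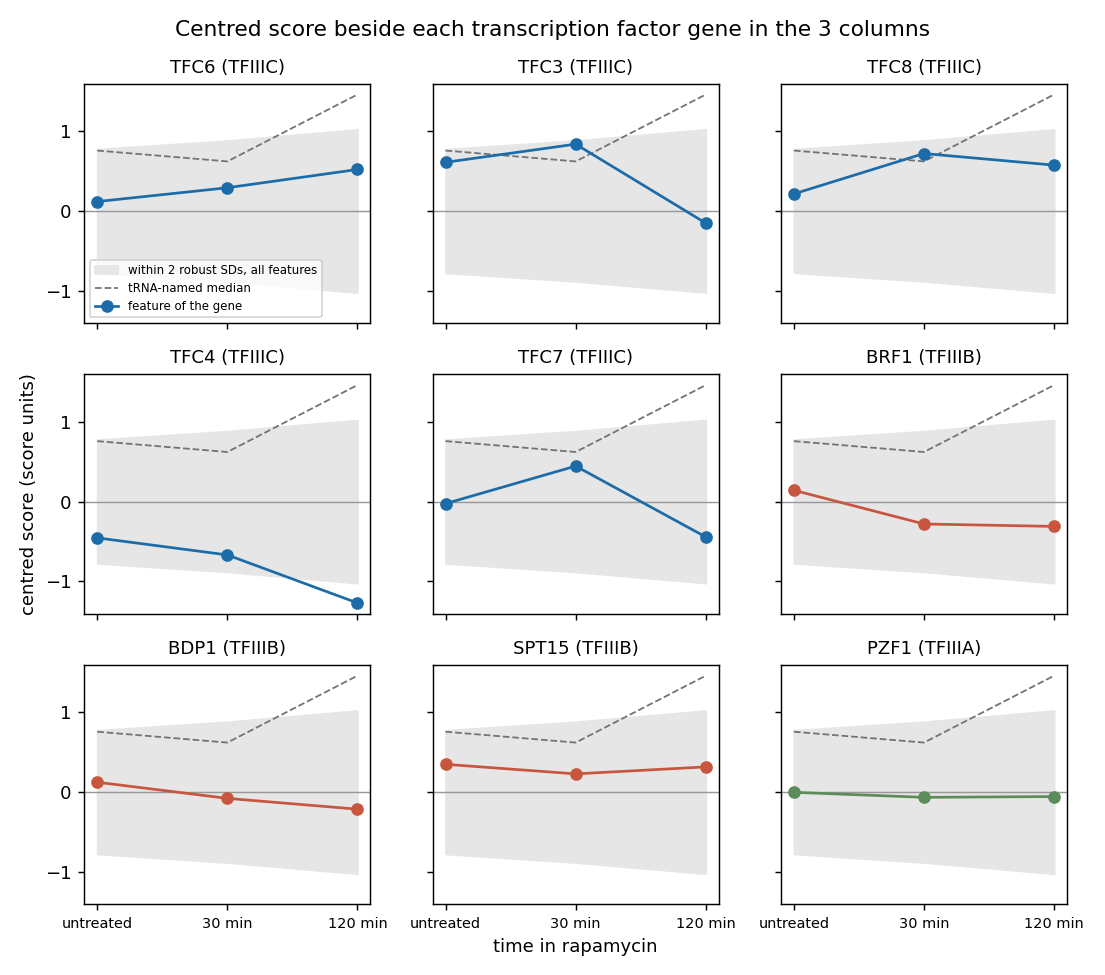
Centred score (vertical axis, score units) beside each of the 9 factor genes in untreated cells and after 30 and 120 min in rapamycin (horizontal axis), as points joined by a line. The grey band spans 2 robust SDs of all features and the dashed line is the median of tRNA-named features; TFC4 after 120 min, at -1.27, lies outside the band.

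The plot of single genes by condition shows that TFC6 and TFC8 ended above where they started, that TFC3, TFC4, TFC7, BRF1 and BDP1 ended below, and that SPT15 and PZF1 stayed near their start. Around the TFIIIB genes single neighbouring features lay far out. GPI15, a gene of GPI anchor synthesis next to BDP1 at higher coordinates, stood at -0.04, 0.01 and -1.73. The feature of YNL040W, next to BDP1 at lower coordinates, stood near the column median at -0.01, 0.06 and -0.05. YNL040W would cover the start of BDP1 if features lie at higher coordinates than the ORF that names them. SCC4, the cohesin loader gene next to SPT15 at lower coordinates, stood at -0.21, -1.99 and -1.05, and the polarity gene PEA2 on its other side at 0.19, -0.30 and 1.43. SPI1, beyond PEA2, adjoins a tRNA gene at its higher-coordinate side and stood at 0.63, 0.50 and 1.93.

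After 120 min SPT15 thus lay between a feature past the limit on the low side and another past it on the high side. Its own score was 0.32. The feature of SCC4 would cover the start of SPT15 if features lie at higher coordinates than the ORF that names them. That of SPT15 itself would then cover the end of the gene. The features beside BRF1 had 0.20, 0.14 and 0.08 at the ribosome biogenesis gene SDA1 and -0.60, -0.38 and -0.16 at CPD1. Over the 20 features named for a gene immediately next to 1 of the 10 factor genes, 0 were past the limit in untreated cells, 1 at 30 min and then 4 at 120 min, namely PEA2 above and TAM41, GPI15 and SCC4 below. The shares of all features were 4.96% above and 4.34% below in untreated cells, and 1.83% above and 3.12% below at 30 min. After 120 min they were 7.60% above and 4.35% below. These few neighbours cannot be set against such shares.

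**Figure D3:**
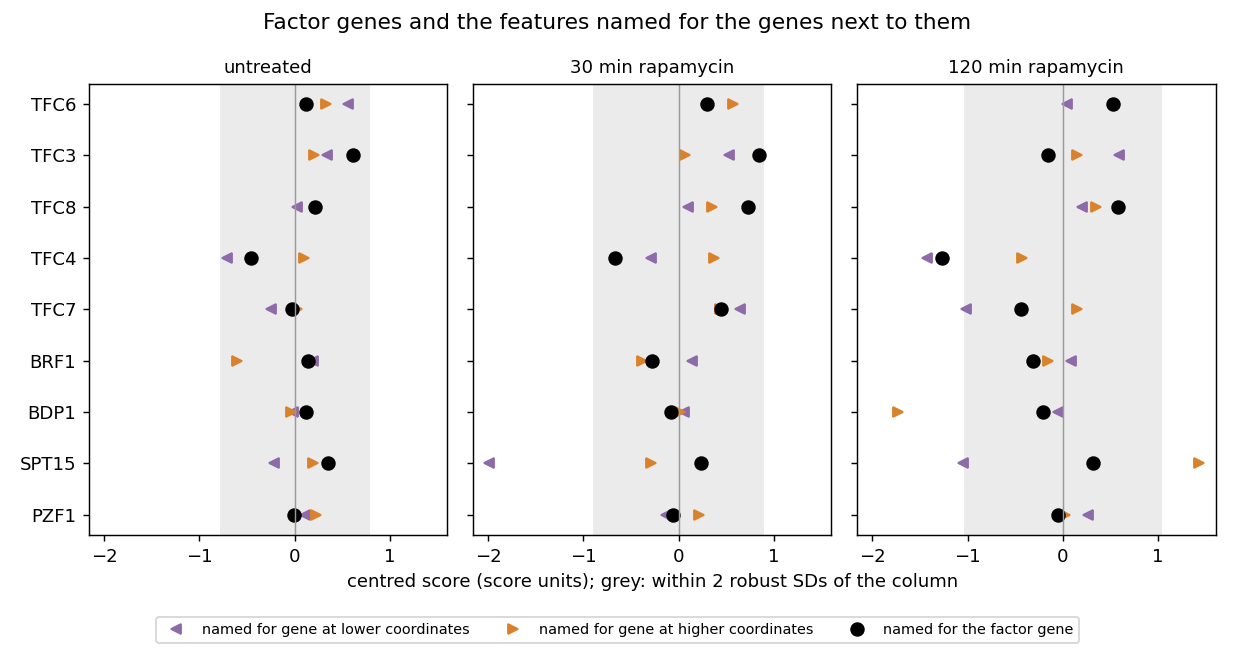
Centred score (horizontal axis, score units) of each factor gene's feature (black circles) and of the features named for the next gene at lower (purple) and higher (orange) coordinates, with 1 panel per condition. The grey area spans 2 robust SDs of the column; after 120 min TAM41 beside TFC4, GPI15 beside BDP1 and SCC4 beside SPT15 lie to its left and PEA2 beside SPT15 to its right.

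PZF1 (YPR186C), the gene of TFIIIA, stood at -0.002 in untreated cells, -0.07 at 30 min and then -0.06 at 120 min. These 3 scores lay closest together of all the factor genes and at the median of each column. Its next gene at higher coordinates is RPO26, which encodes a subunit shared by the nuclear polymerases and runs the opposite way, so that the stretch between them holds the starts of both. The feature of RPO26 stood at 0.23, 0.22 and 0.02. The autophagy gene ATG13 on the other side stood at 0.11, -0.13 and 0.26.

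Over the 9 features the median was 0.12 in untreated cells, 0.23 at 30 min and then -0.15 at 120 min, where the median of all features is 0 by construction. The range was -0.46 to 0.61, then -0.67 to 0.84, then -1.27 to 0.58. The median difference between untreated cells and 30 min was -0.06, against -0.004 over all features. Of the 9, 4 were above 0, where 49.5% of all features were. Between untreated cells and 120 min the median difference was -0.34, against 0.07 over all features. Here 7 of the 9 were below 0, where 2754 of 6278 features in all were. TFC6 and TFC8 were the exceptions. The median from 30 to 120 min was -0.14, against 0.07 over all features. The 3 differences share columns and are not independent of each other.

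Differences were counted as high or low past 2 robust SDs of that difference over all features. At 30 min against untreated cells 0 of 9 were past this limit, where 5.46% of all features were high and 5.72% low. At 120 min against untreated cells TFC4 was past it on the low side at -0.82, with the limit at -0.81, where 5.78% of all features were low and 4.52% high. TFC3 was just inside at -0.76. With each chromosome centred separately, with equal spread or after quantile normalization TFC3 was past the limit instead, at -0.83, -0.83 and -0.87, and TFC4 was inside it at -0.80, -0.58 and -0.54. From 30 to 120 min TFC3 at -0.99 and TFC7 at -0.89 were low, 2 of 9, where 5.94% of all features were low and 5.86% high. With a limit of 3 robust SDs none of the 9 was past it in any column or difference.

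The rest of the Pol III machinery was described in the same way through 18 genes, those of the polymerase subunits and MAF1, all of which had a feature. Their median was 0.00 in untreated cells, 0.15 at 30 min and then 0.01 at 120 min. The median difference between untreated cells and 120 min was 0.19, with 12 of 18 above 0, against -0.34 and 2 of 9 above 0 at the factor genes. Whether the groups of genes differ was not tested, because there is 1 column per condition. The share of all features above 0 for this difference was 56.1%.

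Single subunit genes stood far from the column median too. RPC53, of a subunit in the TFIIF-like part of Pol III, stood at -1.12 in untreated cells, 0.13 at 30 min and then -0.44 at 120 min, and its difference at 30 min of 1.25 was past the limit. RPC25, of a stalk subunit, stood at -1.09, -0.70 and -1.31, low in untreated cells and after 120 min. RPC37, the partner of RPC53 in the polymerase, stood at 0.37, 0.52 and 1.11 and was the only 1 of the 18 above the limit after 120 min. After quantile normalization it was inside the limit, and with other ORFs as the reference RET1 and RPC17 were above it too. RET1, for the second largest subunit, was just inside at 0.41, 0.49 and 1.004.

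RPC17, another stalk subunit gene, stood at 0.13, 0.48 and 0.98. It is the only 1 of the 18 that adjoins a Pol III gene, a tRNA gene at its higher-coordinate side. RPB5, of a subunit shared by the nuclear polymerases, stood at -0.21, -0.52 and 0.32. Its next gene at higher coordinates is CNS1, and the stretch between them is known to hold another extra TFIIIC site, like that of TFC6. The difference from 30 to 120 min was 0.84 at RPB5 and 0.23 at TFC6, both above the median of 0.07 over all features and both inside the limit. RPB5 was past the limit after quantile normalization, at 0.81, and with other ORFs as the reference, at 0.86. RPB5 was below the column median in untreated cells and after 30 min, where TFC6 was above it.

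RPB8 had the highest score of the list in untreated cells, at 0.44, and RPC10 the lowest after 30 min, at -0.76. RPB10 stood at -0.46 after 120 min, next above RPC25. MAF1 differed by 0.70 from untreated cells to 30 min, past the limit for that difference. In all, 2 of 18 were low and 0 high in untreated cells, 0 were past the limit after 30 min, and 1 was high and 1 low after 120 min. The shares of all features were 4.96% high and 4.34% low in untreated cells, and 1.83% high and 3.12% low after 30 min. After 120 min they were 7.60% high and 4.35% low. For the differences, 2 were high and 0 low from untreated cells to 30 min, where 5.46% of all features were high and 5.72% low. In the others 0 were past the limit. From untreated cells to 120 min the shares of all features were 4.52% high and 5.78% low. From 30 to 120 min they were 5.86% high and 5.94% low.

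**Figure D4:**
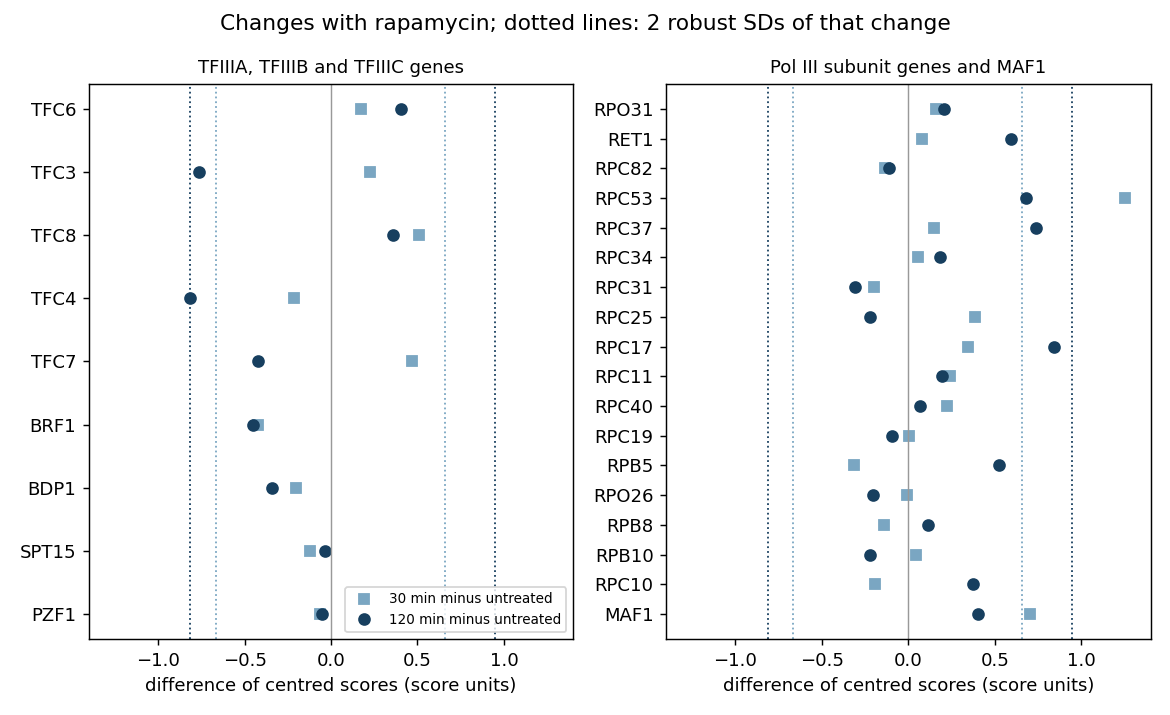
Difference of centred scores (horizontal axis, score units) from untreated cells to 30 min (light squares) and to 120 min (dark circles) for the 9 factor genes at left and the 18 other Pol III machinery genes at right. Dotted lines mark 2 robust SDs of each difference over all features; TFC4 at 120 min, at -0.82, lies on the line, and RPC53 at 30 min, at 1.25, lies beyond it.

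The plot of differences shows 4 of the 9 factor genes right of 0 at 30 min and 2 at 120 min. Of the 18 genes of subunits and MAF1, 12 lay right of 0 at 30 min and 12 at 120 min. The shares of all features right of 0 were 49.5% at 30 min and 56.1% at 120 min, and no difference between the groups was tested.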

How the data were processed

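The deposited values are 3 columns of array scores from Saccharomyces cerevisiae, 1 per condition. Per the labels, the authors normalized each array to a gene list and each deposited score is a mean of 3 replicates. The sources used here do not give the list, background correction, array design, genome build, log base or direction, and the unit was taken as a score. Columns without a sample numbered 0. The number of arrays limits the precision.

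Features were assigned to ORFs by the name in their identifier. Each column was centred on its median, and differences were taken between centred columns. Gene order was read from the RefSeq table of assembly R64. The build of the array is not stated, so no coordinates are printed. The table matched 5525 of 5806 ORF-named features. Python 3.11.15, numpy 2.4.6 and pandas 2.3.3 were used, and the counting was tested on simulated data.

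The genes, lists and limits were chosen with earlier results of these data known. The features named are the 9 factor genes, the features next to all 10, the machinery genes past a limit or at the ends of their list, and the 5 features nearest to TFC6. The genes 1 step farther out beside TFC4 and SPT15 were named after their values were seen, as were RPC17 and RPB5. Sequences were not used here, and a planned search for promoter motifs was not run. Alternatives were no centring, centring by chromosome, equal spread, quantile normalization, a reference of features of ORFs that lack a neighbouring Pol III gene, and a limit of 3 robust SDs.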

Additional observations from a re-analysis of the deposited data

How the results depend on the processing

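No paired analysis was possible because each condition has 1 averaged column. Leaving out replicates could not be done for the same reason, and no factor gene had several tiles to compare. For lack of replicates, single scores were judged by the robust SD over all features, a wide yardstick that says little about medians, so the moves are given. The largest move of a factor gene was at TFC8 from 30 to 120 min, from -0.15 to -0.57 after quantile normalization. Medians moved by at most 0.067 over the factor genes and 0.107 over the machinery list. Of 330 recomputed values 13 had another sign, all at reported sizes of at most 0.09. Counts past the limit were less stable. The shares of all features given above hold for the reported setting, and those under the alternatives were not computed. After 30 min 1 factor gene was high without centring (TFC3), 2 after quantile normalization (TFC3 at 1.20 and TFC8 at 1.03) and 1 with ORF-named features as reference (TFC3), against 0 as reported. With quantile normalization 1 was high from untreated cells to 30 min. At 3 robust SDs the low counts after 120 min, from untreated cells to 120 min and from 30 to 120 min were 0. In the machinery list the high count after 120 min was 0 after quantile normalization, 3 with the ORF reference and 0 at 3 robust SDs. At that limit its low counts in untreated cells and after 120 min were 0 and its high count at 30 min against untreated cells was 1. From untreated cells to 120 min 1 was high with equal spread, quantile normalization or the ORF reference, and from 30 to 120 min 1 with quantile normalization or the ORF reference. The cause was not tested.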
